A study of Mus musculus with 6 samples.

Results

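The genes of the unfolded protein response and of the ATF4 amino acid response were followed in Sca-1-selected spleen cells of leukaemic mice, with and without ABT-737. They were taken from a list of 43 genes, matched to array entries that carry a single gene symbol, and 37 of the 43 were measured among 14860 genes in all. The missing 6 were Atf6, Dnajc3, Phgdh, Pycr1, Aars and Sars. Of these, Dnajc3 and Aars share an array entry with another gene and were left out for that reason. Mars was found under its newer symbol Mars1, and each of the 37 rested on 1 array entry. The measured genes fell into 7 stress transcription factors and ATF4 effectors, 2 stress sensors, 13 ER chaperones and folding factors, 6 amino acid synthesis genes and 9 tRNA synthetases. Every one of them had a mean signal outside the dimmest 30% of genes.

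Expression was read on 6 Affymetrix exon arrays, 1 per mouse. The donors were FVB/N mice with acute myeloid leukaemia, and all carried both the NRASD12 and the BCL-2 transgene, so the controls too held the survival protein as a transgene. The 3 control mice were untreated per the series description, and the 3 treated mice were given ABT-737, an inhibitor of BCL-2, BCL-XL and BCL-W, at 75 mg/kg, 3 times a week for 33 days. The dosing schedule is attached to the control labels as well, and the grouping rests on the treatment each label names. The sources used here give no age, no promoter for either transgene and no vehicle for the controls. Sca-1, a surface protein of primitive blood cells, was the handle for the bead enrichment from spleen. The gene for Sca-1 itself was not analysed here.

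The 6 arrays correlated at 0.970 to 0.988, and no 2 arrays held the same values. Control mouse 3 stood apart in the Y-linked genes Kdm5d, at 4.77 against 8.05 to 9.06 in the other mice, and Eif2s3y, at 4.23 against 9.87 to 10.27. On the first principal component treated mouse 1, at -7.42, lay nearer the controls (-21.0 to -15.0) than treated mice 2 and 3 (32.2 and 28.1). Of 12 stem and progenitor markers 11 lay outside the dimmest 30% of genes, but so did all 11 measured B cell, all 10 T cell and all 15 granulocyte markers. Signal of several lineages was thus present in the selected cells. In such bulk samples fewer cells of a type and less RNA per cell cannot be told apart.

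Proteins that enter the endoplasmic reticulum (ER) fold there with the help of chaperones, and unfolded protein is sensed by 3 membrane proteins, IRE1, PERK and ATF6. IRE1 splices the mRNA of the transcription factor XBP1, ATF6 is cut to release a transcription factor of its own, and PERK phosphorylates the translation factor eIF2, which slows protein synthesis and favours translation of ATF4. Other kinases feed into the same eIF2 step, among them GCN2, which senses a shortage of amino acids. ATF4 switches on genes that import amino acids, make them and load them onto tRNAs. Secretory cells such as plasma cells run the XBP1 branch at a high level as part of their normal state. ATF4 and XBP1 are also controlled through translation and splicing, which a signal per gene does not show.

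Promoter sequences are shown first because the motifs of both responses can be read in them without any expression value. The window ran from 250 bases before to 50 bases after each start in RefSeq (build GRCm38.p6), and 36 of the 43 genes had one. The ER stress response element (ERSE), bound by ATF6 with NF-Y, was searched as CCAAT, 9 bases of any kind and CCACG. The site shared by C/EBP and ATF4 (CARE) was searched as TGATGNAA. Both strands were read, and the 2 motifs overlapped in none of these windows. ERSE stood in 7 of the 12 chaperone windows and in none of the 24 others, against 0.119% of all 32851 promoters. CARE stood in 5 of 7 synthetase windows, 3 of 7 of the transcription factors and effectors, 2 of 8 of the amino acid synthesis genes and 1 of 12 of the chaperones, against 3.97% of all promoters. Neither the XBP1 core TGACGTGG nor the cyclic AMP element TGACGTCA was found in the 36 members' windows, against 0.676% and 1.79% of all promoters. A match is only a run of letters, and no binding was measured.

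Of the chaperones with ERSE, 4 are shown upstream of their start, 5′ to 3′ on the strand of the gene, with the element in capitals. It reads on the other strand in Calr and Creld2. The stretches lie at chr2:34772005-34772063 (plus strand) for Hspa5, chr8:84847055-84847113 (minus) for Calr, chr12:17266471-17266529 (plus) for Pdia6 and chr15:88819500-88819558 (plus) for Creld2.
Hspa5: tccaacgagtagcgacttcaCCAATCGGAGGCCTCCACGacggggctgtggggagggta
Calr: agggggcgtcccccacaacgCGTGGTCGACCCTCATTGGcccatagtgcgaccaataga
Pdia6: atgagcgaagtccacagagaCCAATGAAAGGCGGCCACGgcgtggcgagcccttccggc
Creld2: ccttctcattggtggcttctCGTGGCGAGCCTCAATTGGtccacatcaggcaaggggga

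Genes with CARE are shown the same way, with the site in capitals, because they span those that were higher and those that were lower in the treated mice. The stretches lie at chr1:191183416-191183463 (minus) for Atf3, chr2:119351029-119351076 (plus) for Chac1, chr6:7693210-7693252 (minus) for Asns, chr8:94386297-94386344 (plus) for Herpud1 and chr15:11399659-11399693 (minus) for Tars. The letters TTGCATCA in Atf3, Chac1, Herpud1 and Tars are the site read on the other strand.
Atf3: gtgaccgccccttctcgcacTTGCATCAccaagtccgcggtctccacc
Chac1: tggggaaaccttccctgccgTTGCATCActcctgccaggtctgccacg
Asns: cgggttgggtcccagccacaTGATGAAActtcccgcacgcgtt
Herpud1: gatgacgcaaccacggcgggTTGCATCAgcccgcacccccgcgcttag
Tars: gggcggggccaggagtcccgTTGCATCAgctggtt

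The comparison asked whether these genes differed between 3 treated and 3 control mice. None of the 37 passed an adjusted p of 0.05 by limma, as was the case for all 14860 genes (0%). The smallest adjusted p among the 37 was 0.332, for Ern1, and differences ran from -0.52 to 0.69 log2. Mean signal was higher in the treated mice for 12 of the 37 genes and lower for 25, against 44% and 55.3% of all genes. The median difference was -0.12 log2, and over all genes it was -0.02. At an unadjusted p under 0.05, 4 of the 37 were higher (Ern1, Xbp1, Atf3 and Chac1) and 2 were lower (Psat1 and Shmt2), against 5.75% and 4.45% of all genes. In 3 of the 37 (Ern1, Xbp1 and Atf3) every treated mouse lay above every control, and in 3 (Psat1, Shmt2 and Iars) below, against 6.14% and 7.19% of all genes.

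The members' shares were 32.4% for higher and 67.6% for lower means, and 10.8% and 5.41% at an unadjusted p under 0.05. They moved with the scaling of the arrays and with single mice, as did those of the whole table. After quantile normalization 2 members were higher and 6 lower at an unadjusted p under 0.05, beside 4.96% and 9.47% of all genes. With arrays centred on their median 1 was higher and 5 were lower, beside 4.16% and 8.84% of all genes. Over all genes 56.3% of such calls were higher as deposited, 34.4% after quantile normalization and 32% after centring. Without control mouse 1 the members' counts were 1 higher and 1 lower, beside 5.14% and 2.19% of all genes. Without treated mouse 1 they were 6 and 1, beside 10.3% and 4.48% of all genes. Without treated mouse 3 they were 1 and 2, beside 3.84% and 3.57%, and without control mouse 2 they were 3 and 4, beside 3.07% and 5.63%. Without control mouse 3 they were 2 and 2, beside 4.48% and 3.31%. Without control mouse 1, 18 of the 37 means were higher in place of 12.

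**Figure D1:**
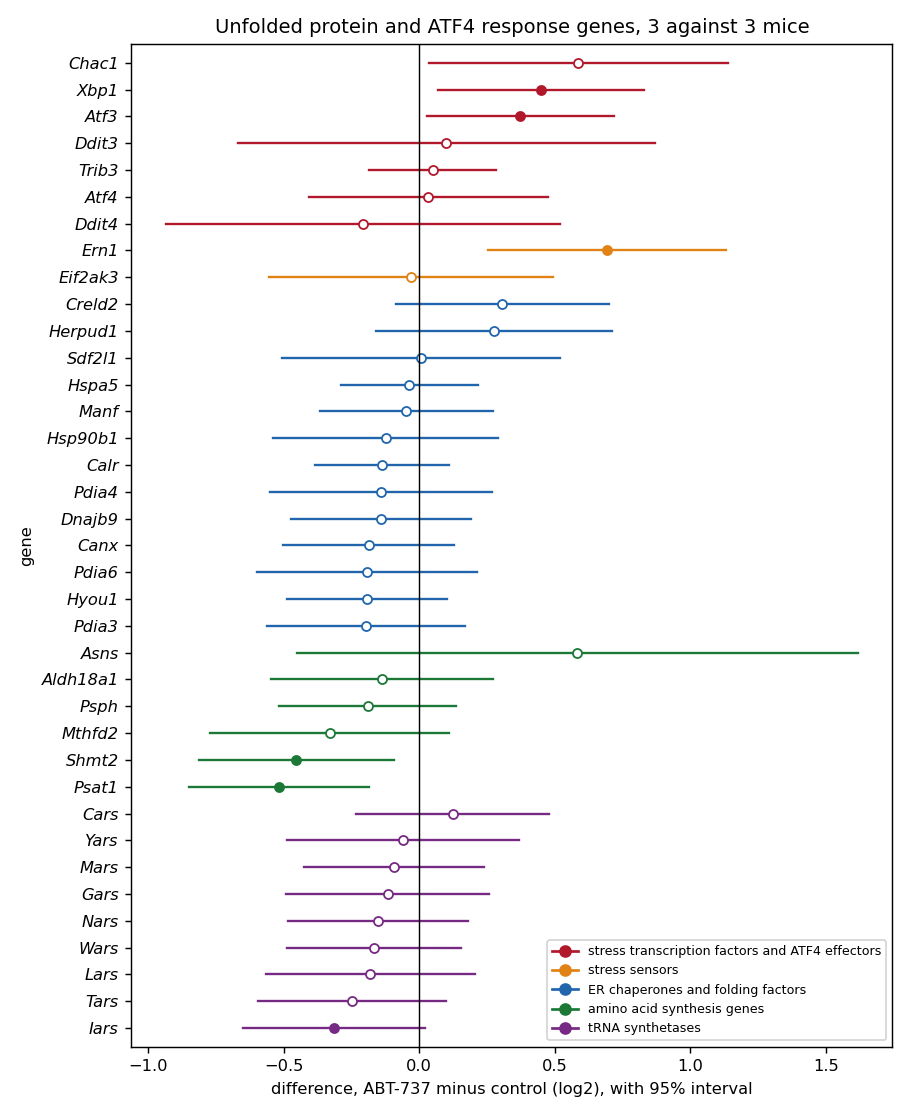
Differences between 3 treated and 3 control mice (x axis, log2) for the 37 measured genes (y axis), with 95% intervals from limma; colours give the role, and filled points mark genes whose groups did not overlap. Ern1, at 0.69, and Chac1, at 0.59, lie farthest right, Psat1, at -0.52, lies farthest left, and most chaperones and synthetases lie slightly below 0.

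Of the stress sensors 2 were measured, and the difference between them was not tested. Ern1, which encodes IRE1 alpha, the kinase and RNase that splices Xbp1 mRNA, read 9.32, 8.89 and 9.24 in the controls and 9.51, 10.05 and 9.97 in the treated mice. Each treated mouse lay above each control, and treated mouse 1 lay closest to them. The means were 9.15 ± 0.23 and 9.84 ± 0.29 (SD, n = 3 each), which is 0.69 log2 or 1.62-fold higher in the treated mice (limma SE 0.19, adjusted p = 0.332). Without treated mouse 1 it was 0.86 with an adjusted p of 0.0400 by limma, while without any of the other mice the adjusted p ran from 0.447 to 0.674. Without treated mouse 1, 510 of all 14860 genes (3.43%) passed that threshold, so the call is not particular to Ern1. Eif2ak3, which encodes PERK, read 10.18, 10.05 and 9.78 in the controls and 10.43, 9.61 and 9.88 in the treated mice. Its groups overlapped, with the highest and the lowest value both in treated mice, and the difference was -0.03 (95% interval -0.55 to 0.49).

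Xbp1, the transcription factor that IRE1 activates by splicing, read 12, 11.88 and 12.12 in the controls and 12.23, 12.36 and 12.76 in the treated mice. All treated values lay above the controls, and treated mouse 3 was the highest. The treated mean was 0.45 log2 or 1.37-fold higher (limma SE 0.16, adjusted p = 0.424), and this was 0.30 without treated mouse 3. The array value adds the spliced and unspliced forms together, so it does not measure splicing.

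Atf3, a stress-induced partner of ATF4, read 11.12, 11.58 and 11.35 in the controls and 11.62, 11.71 and 11.84 in the treated mice. The groups nearly touched, at 11.58 in control mouse 2 and 11.62 in treated mouse 1. The difference was 0.37 (SE 0.15, adjusted p = 0.456 by limma). Chac1, an ATF4 target that breaks down glutathione, read 8.34, 8.38 and 7.83 in the controls and 8.38, 8.77 and 9.16 in the treated mice. Treated mouse 1 equalled control mouse 2, and treated mice 2 and 3 lay above all controls. The difference was 0.59 (SE 0.23, adjusted p = 0.460 by limma), against 0.39 without treated mouse 3.

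Atf4 and Ddit3 did not share this pattern. Atf4 read 11.76, 11.62 and 11.28 in the controls and 11.88, 11.32 and 11.56 in the treated mice, a difference of 0.03 (95% interval -0.41 to 0.47) whose sign flipped to negative with either of the 2 scalings. Ddit3, which encodes the pro-apoptotic factor CHOP, read 9.44, 9.26 and 8.37 in the controls and 9.64, 8.85 and 8.88 in the treated mice. Its difference was 0.10 (95% interval -0.67 to 0.87), and its sign turned when control mouse 3 (-0.23) or treated mouse 1 (-0.16) was left out. For both genes control mouse 3 was the lowest mouse and treated mouse 1 the highest. Of the remaining genes in this role, Trib3, a pseudokinase induced by ATF4 and CHOP, differed by 0.05 (95% interval -0.18 to 0.28), with the sign flipped under both scalings. Ddit4, an inhibitor of mTOR signalling, differed by -0.21 (95% interval -0.93 to 0.52). In all, 6 of the 7 had higher means in the treated mice, with Atf4 and Trib3 lower under both scalings. The median was 0.10, which became 0.01 with arrays centred, 0.05 after quantile normalization and 0.37 with array weights. It was 0.26 when control mouse 1 was left out and 0.03 when treated mouse 1 was.

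**Figure D2:**
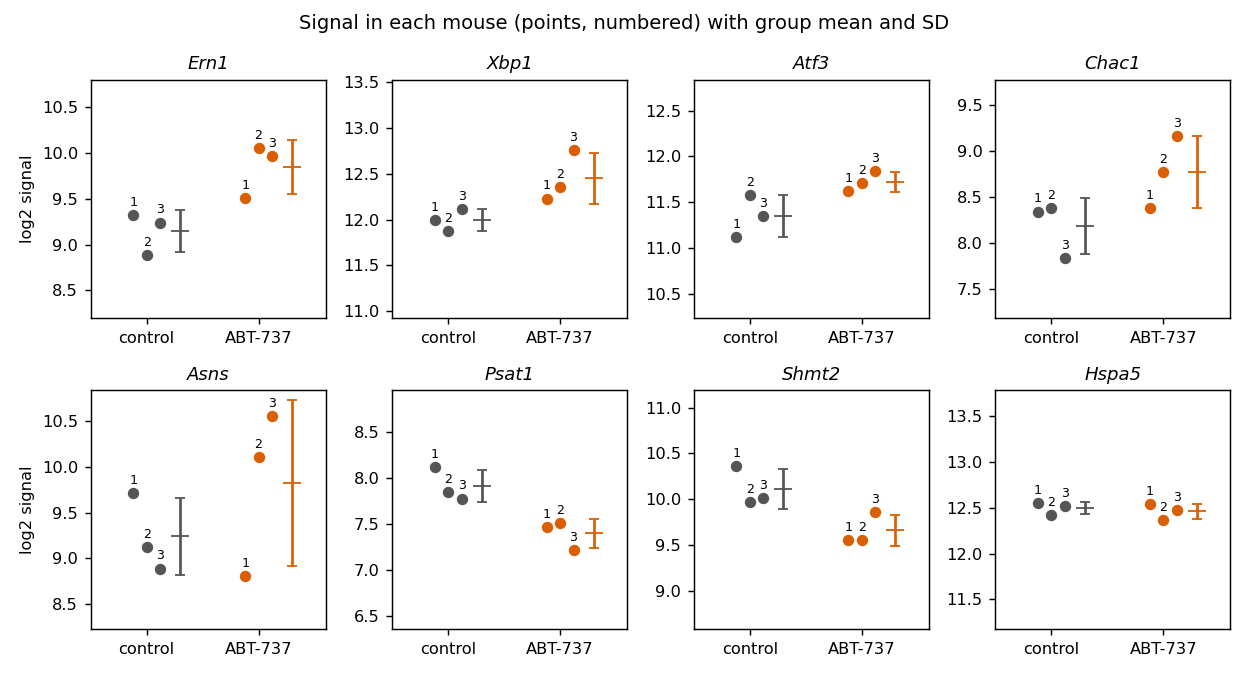
Log2 signal (y axis) of 8 genes in each mouse, as points numbered by mouse, with the mean and SD of each group of 3 beside them; every panel spans the same range of log2 units. Ern1, Xbp1 and Atf3 separate the groups upwards, Psat1 and Shmt2 downwards, Asns is split within the treated group, and Hspa5 is level.

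The ER chaperones were mostly slightly lower in the treated mice, with overlapping groups. Hspa5, which encodes BiP, the main ER chaperone and the classic readout of the response, read 12.55, 12.42 and 12.52 in the controls and 12.54, 12.37 and 12.47 in the treated mice. The lowest and the second highest value were both in treated mice, and the difference was -0.04 (95% interval -0.29 to 0.22). Of the 13 measured chaperones and folding factors 10 had lower means and 3 had higher means, with a median of -0.14, and groups overlapped in all 13. No member was past an unadjusted p of 0.05. Leaving out control mouse 3 brought the median to -0.03, and leaving out treated mouse 1 brought it to -0.06, while centring the arrays gave -0.22.

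Within the chaperones, 2 genes stood at the upper end. Creld2, a secreted ER stress protein with protein disulphide isomerase activity, read 11.23, 11.11 and 11.43 in the controls and 11.31, 11.53 and 11.85 in the treated mice, a difference of 0.31 (SE 0.17, adjusted p = 0.603 by limma). Herpud1, a membrane protein of ER-associated degradation, read 11.21, 11.20 and 11.08 in the controls and 11.46, 11.07 and 11.79 in the treated mice, a difference of 0.28 (SE 0.19, adjusted p = 0.688 by limma). In both genes treated mouse 3 was the highest and at least 1 treated mouse lay within or below the controls. Sdf2l1, a component of the BiP complex, differed by 0.01 and turned negative under both scalings, with array weights and without control mouse 2 or treated mouse 3.

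The 10 with lower means differed by -0.04 to -0.20. Hyou1, the large ER chaperone GRP170 that exchanges nucleotide on BiP, read 10.31, 10.16 and 10.37 in the controls and 9.92, 10.13 and 10.21 in the treated mice. Treated mice 1 and 2 lay below all controls and treated mouse 3 among them, and the difference was -0.19 (SE 0.13, adjusted p = 0.674 by limma). The disulphide isomerases Pdia3, Pdia6 and Pdia4 differed by -0.20, -0.19 and -0.14, and the lectin chaperones Canx and Calr by -0.19 and -0.14. Hsp90b1, which encodes GRP94, differed by -0.12, the BiP co-chaperone Dnajb9 by -0.14 and the secreted factor Manf by -0.05. Treated mouse 1 was the lowest mouse in 9 of the 13 genes, control mouse 3 the highest in 6 and treated mouse 3 the highest in 4. Averaged over the 13 genes and set against the control mean, the treated mice stood at -0.21, -0.05 and 0.08 and the controls at 0.01, -0.12 and 0.11.

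Of the 6 measured chaperones with ERSE, 5 had lower means and Creld2 had a higher one, with differences from -0.19 to 0.31 and a median of -0.13. The 9 measured genes with CARE went both ways. Chac1, Asns, Atf3, Herpud1 and Trib3 had higher means, and the synthetases Gars, Iars, Tars and Yars had lower ones, with differences from -0.31 to 0.59 and a median of 0.05. Trib3 turned negative under both scalings, and without control mouse 1 Gars stood at 0.025 and Yars at 0.11. These are descriptions with no test, and the 2 median values differ by less than the range within either set.

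The amino acid synthesis genes were lower apart from Asns. Psat1, the aminotransferase of serine synthesis, read 8.12, 7.85 and 7.78 in the controls and 7.47, 7.51 and 7.22 in the treated mice. Every treated mouse lay below every control. The means were 7.92 ± 0.18 and 7.40 ± 0.16 (SD, n = 3 each), so the treated mean was 1.43-fold lower, at -0.52 on the log2 scale (limma SE 0.14, adjusted p = 0.337). Leaving out any 1 mouse gave differences of -0.59 to -0.42.

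Shmt2, the mitochondrial enzyme that turns serine into glycine and a folate-bound carbon, read 10.36, 9.97 and 10.01 in the controls and 9.56, 9.56 and 9.86 in the treated mice. Its groups did not overlap either, and the difference was -0.45 (SE 0.15, 1.37-fold lower, adjusted p = 0.404 by limma). Mthfd2, the next enzyme of that mitochondrial folate pathway, read 9.42, 9.05 and 8.99 in the controls and 8.56, 9.14 and 8.77 in the treated mice. Treated mouse 2 lay among the controls and the other treated mice below them, and the difference was -0.33 (SE 0.19, adjusted p = 0.622 by limma). Psph, which completes serine synthesis, differed by -0.19 and Aldh18a1, which starts proline synthesis, by -0.14.

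Asns, the asparagine synthetase and a standard ATF4 target, ran the other way and was the most variable of the 37 genes. It read 9.71, 9.12 and 8.89 in the controls and 8.81, 10.11 and 10.55 in the treated mice. Treated mice 2 and 3 lay above all controls, while treated mouse 1 was the lowest of the 6. The difference was 0.58 (95% interval -0.45 to 1.62, adjusted p = 0.733 by limma), rising to 1.09 when treated mouse 1 was left out and shrinking to 0.22 when treated mouse 3 was. Erythroid markers ordered the treated mice the same way, and they were not the only list to do so. List averages were set against the control mean. Over 9 erythroid markers the controls stood at 0.20, -0.08 and -0.11 and the treated mice at -0.61, 1.03 and 1.66. Treated mice stood at 0.49, 1.26 and 1.48 for the granulocyte markers and at -0.21, -0.05 and 0.08 for the ER chaperones. The part of these lists in the Asns values was not tested. Over the 6 genes of the role, 5 had lower means, with a median of -0.26. That median was -0.13 without control mouse 1, the highest mouse in 5 of the 6 genes.

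Other enzymes around serine and folate were read beside them. The 6 measured genes split into 3 lower and 3 higher, at a median of -0.08. The 3 higher ones were Gldc, Gcsh and Aldh1l2, at 0.04 to 0.18, all among the dimmest 30% of genes. With the dimmest 30% left out, which leaves 3 of the 6, the median was -0.47. At an unadjusted p under 0.05, 2 were lower and none was higher, beside 4.45% and 5.75% of all genes. Shmt1, the cytosolic counterpart of Shmt2, differed by -0.53 (SE 0.19, adjusted p = 0.423 by limma) and Mthfd1, the cytosolic folate enzyme, by -0.47 (SE 0.17, adjusted p = 0.435 by limma). In both, each treated mouse lay below each control, as in Psat1 and Shmt2 and in 7.19% of all genes. The values were 8.85, 8.18 and 8.26 against 7.82, 8.03 and 7.84 for Shmt1, and 9.45, 8.95 and 9.08 against 8.74, 8.87 and 8.45 for Mthfd1.

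The tRNA synthetases, which load amino acids onto tRNAs, were mostly slightly lower. Of 9 measured genes 8 had lower means and only Cars, for cysteine, a higher one, at 0.12. Their median was -0.15, and no member was past an unadjusted p of 0.05. Iars, for isoleucine, read 10.36, 9.91 and 10.19 in the controls and 9.89, 9.89 and 9.74 in the treated mice. Its groups nearly touched, at 9.91 in control mouse 2 and 9.89 in treated mice 1 and 2, and the difference was -0.31 (SE 0.14, adjusted p = 0.519 by limma). Tars, for threonine, read 8.68, 8.23 and 8.47 in the controls and 8.07, 8.31 and 8.26 in the treated mice, with overlapping groups and a difference of -0.25 (SE 0.15, adjusted p = 0.640 by limma).

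The remaining synthetases, for leucine (Lars), tryptophan (Wars), asparagine (Nars), glycine (Gars), methionine (Mars) and tyrosine (Yars), differed by -0.18 to -0.06 with overlapping groups. Control mouse 1 was the highest mouse in 8 of the 9 genes, and treated mouse 1 the lowest in 5. Their median became -0.06 when control mouse 1 was left out, -0.065 when treated mouse 1 was, and -0.24 with arrays centred. The cytosolic synthetases outside the list gave the same sign, with all 7 measured lower and a median of -0.27. At an unadjusted p under 0.05, 3 of these were lower, beside 4.45% of all genes. They were Farsb at -0.46 (SE 0.13), Kars at -0.37 (SE 0.15) and Qars at -0.29 (SE 0.12), with adjusted p values of 0.358 to 0.488 by limma.

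DNA replication genes had the same highest and lowest mouse as the synthetases and the amino acid synthesis genes. Averaged over 13 replication genes and set against the control mean, the controls stood at 0.33, -0.14 and -0.19 and the treated mice at -0.70, -0.11 and -0.46. The same averages were 0.22, -0.19 and -0.03 against -0.27, -0.08 and -0.05 for the 9 synthetases, and 0.30, -0.15 and -0.15 against -0.41, -0.08 and -0.03 for the 6 amino acid synthesis genes. Control mouse 1 was the highest and treated mouse 1 the lowest in all 3 lists. Treated mouse 3 lay below all controls for the replication genes, but among the controls for the synthetases and the amino acid synthesis genes. All 13 replication genes had lower means in the treated mice, with a median of -0.46. The transcription factor Myc, which drives growth genes of this kind, read 12.34, 12.15 and 12.19 in the controls and 11.91, 10.89 and 11.04 in the treated mice, a difference of -0.95 (SE 0.26, adjusted p = 0.337 by limma). The part of the replication genes and of Myc in the differences of these arms was not tested.

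**Figure D3:**
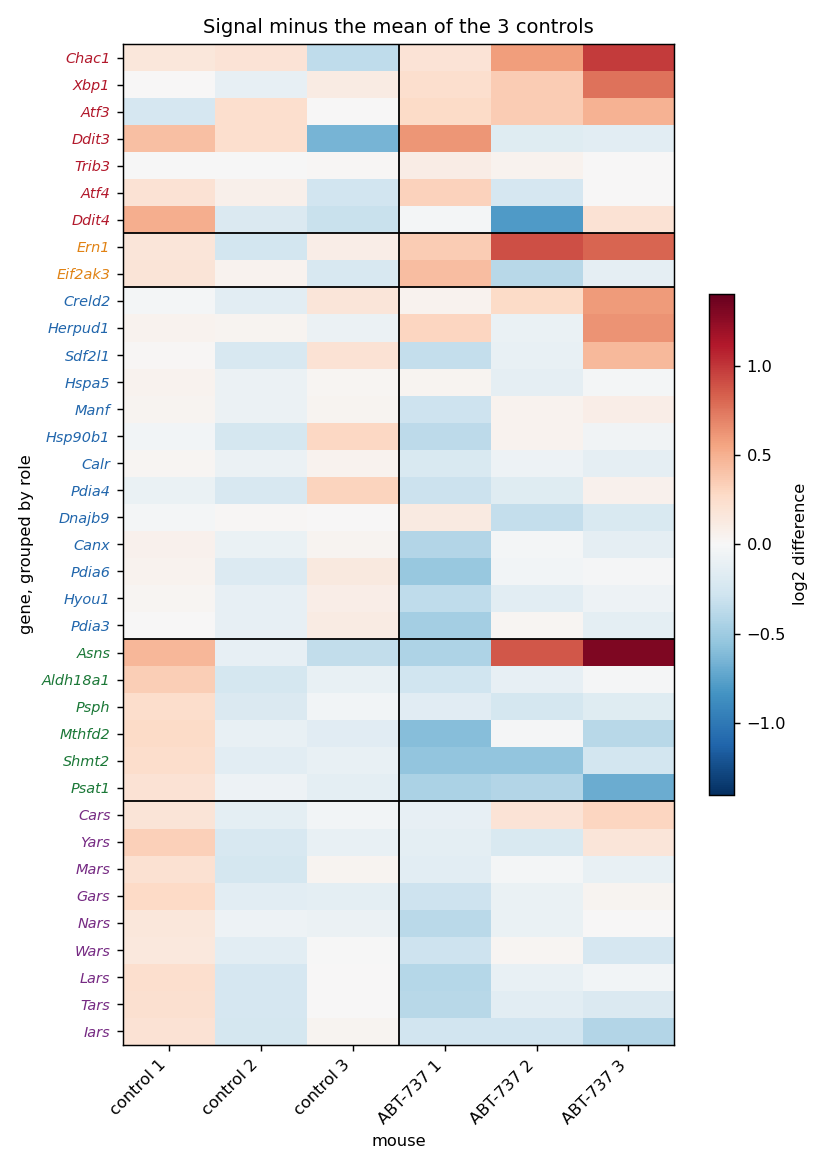
Signal of each of the 37 genes (rows, grouped by role) in each mouse (columns), as the log2 difference from the mean of the 3 controls; red is higher and blue lower. Control mouse 1 is red across most synthetases and amino acid synthesis genes, treated mouse 1 is blue across most chaperones and synthetases, and the reddest cell is Asns in treated mouse 3.

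Further genes of the same pathway were read to place the members. Amino acid transporters held the largest difference in the pathway lists. Slc7a11, the cystine and glutamate exchanger that ATF4 and NRF2 both control, read 8.20, 8.38 and 7.41 in the controls and 10.07, 11.14 and 10.05 in the treated mice. All treated mice, including treated mouse 1, lay well above the highest control, at 8.38. The difference was 2.42 (SE 0.36, 5.36-fold, adjusted p = 0.203 by limma). The adjusted p by limma was 0.0430 when the dimmest 30% of genes were left out, 0.0133 without treated mouse 1 and 0.106 to 0.669 under the other alternatives. In those 2 settings 14 of 10401 genes (0.135%) and 510 of 14860 genes (3.43%) passed. Its partner chain Slc3a2 differed by 0.40 (SE 0.15, adjusted p = 0.446 by limma). The 9 transporters split into 7 higher and 2 lower means around a median of 0.19. Slc7a11 and Slc3a2 alone were past an unadjusted p of 0.05, both higher, beside 5.75% of all genes.

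ER-associated degradation (ERAD), which pulls misfolded protein out of the ER, contained 10 of 11 measured genes with higher means, with a median of 0.18. In 5 of the 11 every treated mouse lay above every control, beside 6.14% of all genes. At an unadjusted p under 0.05, 3 were higher and none lower, beside 5.75% and 4.45% of all genes. Sel1l, the scaffold of the HRD1 ubiquitin ligase, read 10.51, 10.30 and 10.75 in the controls and 11.11, 11.18 and 11.82 in the treated mice, a difference of 0.85 (SE 0.22, adjusted p = 0.330 by limma). Edem2, which trims the glycans that mark misfolded proteins, read 10.25, 9.99 and 10.38 against 10.73, 10.64 and 11.58, a difference of 0.78 (SE 0.26, adjusted p = 0.404 by limma). Derl3, a derlin of the ER membrane, read 10.63, 10.47 and 10.90 against 11.21, 11.10 and 11.80, a difference of 0.70 (SE 0.21, adjusted p = 0.374 by limma). In these 3 genes, as in Xbp1, the groups did not overlap and treated mouse 3 was the highest. Without that mouse the differences were 0.63, 0.48 and 0.49.

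Folding enzymes outside the list went the same way, with 10 of 13 higher and a median of 0.19, which was 0.05 without treated mouse 3. At an unadjusted p under 0.05, 3 were higher and none lower, beside 5.75% and 4.45% of all genes. Ero1lb, an oxidase that recharges disulphide isomerases, read 7.89, 8.15 and 8.09 in the controls and 8.48, 9.86 and 10.25 in the treated mice, a difference of 1.49 (SE 0.42, 2.80-fold, adjusted p = 0.345 by limma). Without treated mouse 1 it was 2.01 with an adjusted p of 0.00337 by limma, against 0.181 to 0.674 under the other alternatives. This is again the setting in which 3.43% of all genes passed. Prdx4, an ER peroxiredoxin, differed by 0.76 (SE 0.26) and the prolyl isomerase Fkbp2 by 0.54 (SE 0.22).

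Markers of plasma cells, in which many of these genes are abundant, were read beside them. Of 10 measured plasma cell markers 9 were higher, with a median of 0.33, and 4 of the 10 (Xbp1, Derl3, Fkbp11 and Txndc5) also belong to the ER lists. The 6 that do not had a median of 0.18, with 5 higher and 2 (Sdc1 and Tnfrsf17) higher without overlap, beside 6.14% of all genes. Averaged over these 6, the controls stood at 0.12, -0.24 and 0.12 against their own mean and the treated mice at 0.32, 0.26 and 0.95, so treated mouse 3 was again the highest. Sdc1, the surface marker CD138, read 8.48, 8.01 and 8.6 in the controls and 9.45, 9.40 and 10.37 in the treated mice, and Tnfrsf17, the receptor BCMA, read 7.28, 6.68 and 6.94 against 7.79, 8.10 and 9.22. The other 4 differed by less, with Prdm1 at 0.14, Irf4 at -0.11, Mzb1 at 0.03 and Slamf7 at 0.21. Granulocyte markers were mostly higher in the treated mice, with 11 of 15 higher and a median of 1.13. The 4 lower ones were Elane at -0.32, Mpo at -0.51, Prtn3 at -0.55 and Ctsg at -0.73. B cell markers had lower means in 10 of 11, with a median of -0.65. Their averages were 0.04, -0.21 and 0.17 in the controls and -0.04, -0.99 and -0.79 in the treated mice. Treated mouse 1 thus lay among the controls. Higher means were also found for 9 of 9 erythroid (median 0.71), 10 of 11 monocyte and macrophage (0.49) and 6 of 6 megakaryocyte markers (0.48). The erythroid median was 0.08 without treated mouse 3, and treated mouse 1 was the lowest mouse in 8 of the 9. Lower means were found for 9 of 12 stem and progenitor (-0.26), 9 of 10 T cell (-0.17) and 5 of 6 NK cell markers (-0.34). The part of these cell types in the values of Ern1, Xbp1 and the ERAD genes was not tested.

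**Figure D4:**
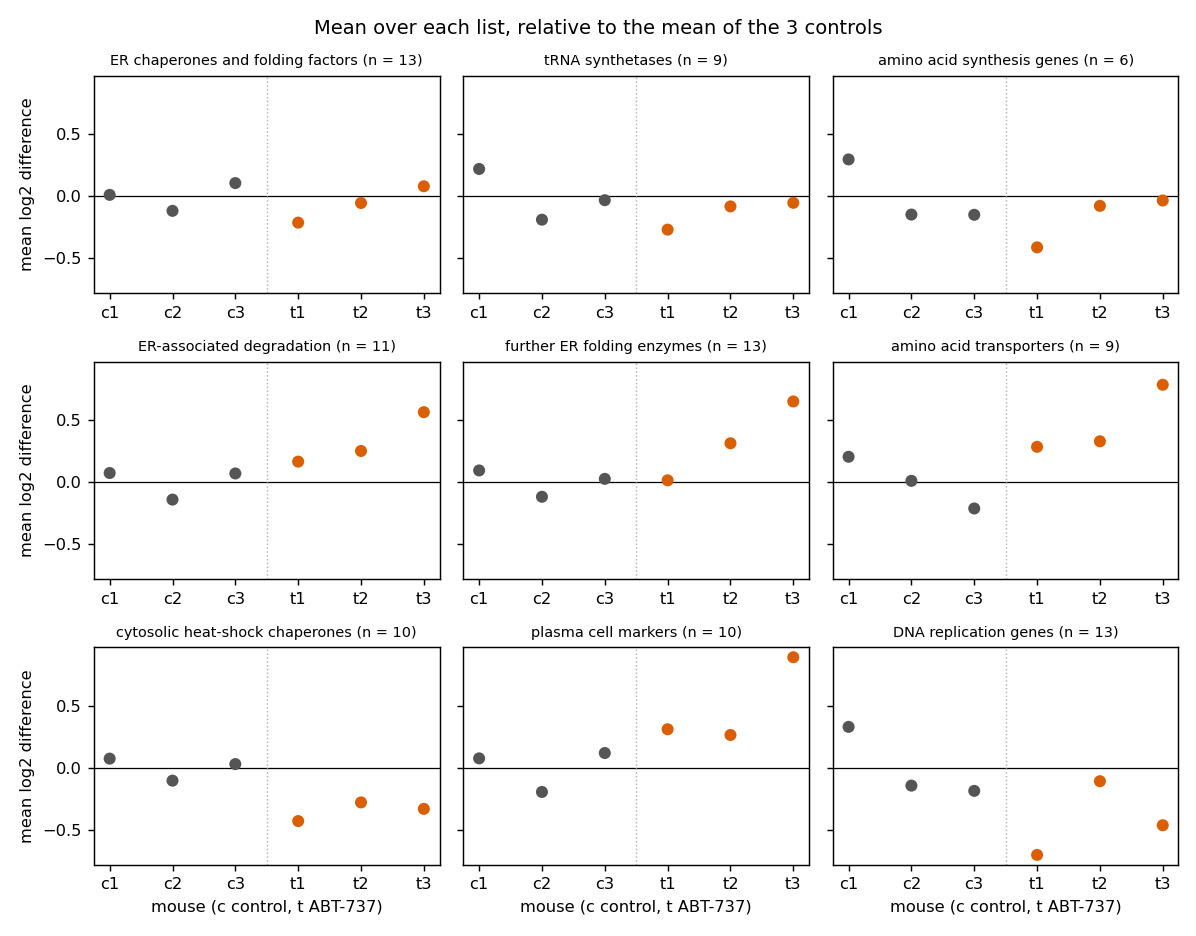
Mean of each list in each mouse (points; controls c1 to c3, treated t1 to t3), as the log2 difference from the mean of the 3 controls, with the number of genes in each title. ER-associated degradation, further ER folding enzymes and plasma cell markers are highest in treated mouse 3, at 0.56, 0.65 and 0.89, while the heat-shock chaperones lie at -0.28 to -0.43 in all treated mice.

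The cytosolic heat-shock chaperones, which answer to unfolded protein outside the ER, were read beside the ER chaperones. Of 16 listed genes 10 were measured, and 8 of the 10 had lower means, at a median of -0.36. In 6 the unadjusted p was under 0.05, all lower, beside 4.45% of all genes. The 2 with higher means were Bag3, at 0.48 (SE 0.21), and Hsp90aa1, at 0.07 (SE 0.25). Stip1, which links HSP70 to HSP90, read 11.03, 10.98 and 11.20 in the controls and 10.22, 10.55 and 10.11 in the treated mice, a difference of -0.78 (SE 0.15, adjusted p = 0.242 by limma). Cct3, a subunit of the chaperonin that folds actin and tubulin, differed by -0.67 (SE 0.14) and Hsph1, which encodes HSP110, by -1.12 (SE 0.26). Averaged over the 10 genes the treated mice stood at -0.43, -0.28 and -0.33 against the control mean, all below the controls at 0.07, -0.10 and 0.03. For the ER chaperones the same averages overlapped between the groups. The difference between the 2 lists was not tested.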

How the data were processed

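The deposited table holds the authors' log2 array values, from 2.6 to 14.3. That scale was read from the values. Biotin labelling of total RNA is per the labels' protocols, and the genome build mm9 is per the submitters' processing notes. No source used here states the summarisation, normalization or filters, and their effect on small differences is unknown. Of 23332 entries the platform annotation gave 14996 a single symbol, and the entry with the highest mean stood for each of 14860 genes. In R 4.3.3, limma 3.58.1 (lmFit and eBayes) fitted treated minus control, and p-values were adjusted over all genes by Benjamini-Hochberg. The fit was tested on simulated data.

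The members and lists were chosen with earlier results of these data known. Values per mouse are given for the 12 members with the smallest p and for Atf4, Ddit3, Xbp1, Hspa5, Asns and the sensors. From each further list up to 3 genes at an unadjusted p under 0.05 are named, some of them without values per mouse. Any other gene that is named was picked with its values known. Replicates are separate mice, numbered in accession order. The 6 arrays limit the precision. Motifs were searched in Python 3.11.15 and figures drawn with matplotlib 3.10.9.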

Additional observations from a re-analysis of the deposited data

How the results depend on the processing

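No paired analysis was possible because no number is shared between control and treated mice in the labels. The alternatives were quantile normalization, arrays centred on their medians, array weights, an intensity trend, robust variance, averaging of entries, removal of the dimmest 30% of genes, and removal of each mouse in turn. No member passed an adjusted p of 0.05 under any of them except Ern1, at 0.86, without treated mouse 1 (0 to 1 members when a mouse was left out), a setting in which 3.43% of all genes passed. Members higher at an unadjusted p under 0.05 numbered 2 after quantile normalization, 1 after centring and 1 to 6 without a mouse, and members lower 6, 5 and 1 to 4. In the same order, 4.96%, 4.16% and 3.07% to 10.3% of all genes were higher, and 9.47%, 8.84% and 2.19% to 5.63% lower. The median of the sensors is the midpoint of 2 genes that differ, Ern1 at 0.69 and Eif2ak3 at -0.03. The 5 role medians kept their sign throughout. Without a mouse they ran from 0.03 to 0.26 for the transcription factors and effectors, 0.28 to 0.42 for the sensors, -0.18 to -0.03 for the chaperones, -0.34 to -0.13 for amino acid synthesis and -0.22 to -0.06 for the synthetases. With arrays centred they were 0.0133, 0.245, -0.2233, -0.3467 and -0.24 in the same order, and array weights gave 0.37 for the factors. Array medians were 7.13, 6.86 and 7.09 in the controls and 7.13, 7.14 and 7.07 in the treated mice. Centring subtracts these medians, so it lowered the difference of every gene by the same amount. The median difference over all genes was -0.02 as deposited, -0.11 after centring and -0.06 after quantile normalization. The cause of the other shifts was not tested.

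Of 481 member differences under alternatives, 28 in 14 genes changed sign. Under quantile normalization and centring these were Atf4 at -0.0325 and -0.0533, Trib3 at -0.0464 and -0.0367 and Sdf2l1 at -0.0764 and -0.08, and with array weights Sdf2l1 at -0.10 and Eif2ak3 at 0.047. Without a mouse the ranges were -0.11 to 0.17 for Atf4, -0.23 to 0.31 for Ddit3, -0.41 to 0.085 for Ddit4, -0.26 to 0.15 for Eif2ak3, -0.0767 to 0.0083 for Hspa5, -0.22 to 0.18 for Sdf2l1, -0.25 to 0.0183 for Pdia4, -0.25 to 0.02 for Hsp90b1, -0.12 to 0.0733 for Manf, -0.26 to 0.0367 for Aldh18a1, -0.19 to 0.025 for Gars, -0.22 to 0.0117 for Mars and -0.18 to 0.11 for Yars. Among further lists, medians turned to -0.0283 and -0.0233 for ATF4 partners and to -0.0667 and -0.0633 for ER translocation under the same scalings. Without a mouse they ran from -0.11 to 0.10 for ER translocation, -0.20 to 0.0133 for eIF2 regulators and -0.22 to 0.0408 for folate enzymes.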

Other observations

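Other parts of the pathway had medians of -0.12 to 0.06, beside -0.02 over all genes. Regulators of eIF2 had a median difference of -0.12 over 7 measured genes, with 3 higher and 4 lower. Measured were the kinase Eif2ak4, the phosphatase subunits Ppp1r15a and Ppp1r15b, and Eif2b1, Eif2b2, Eif2b4 and Eif2b5 of the exchange factor eIF2B. The kinases Eif2ak1 and Eif2ak2 were not measured, and Eif2ak3 is counted with the sensors. ATF4 partners and further ATF4 targets had a median of 0.06 over 13 genes, with 7 higher and 6 lower, and the median turned negative under both scalings of the arrays. Genes of translocation into the ER had a median of 0.02 over 17 genes, with 9 higher and 8 lower, and a median that turned negative under both scalings and without control mouse 2, treated mouse 2 or treated mouse 3. Treated mouse 1 was the lowest and treated mouse 3 the highest mouse in 10 of the 17 each. None of these 3 lists held a gene at an unadjusted p under 0.05 by limma.

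Mitochondrial tRNA synthetases had lower means in 13 of 15 measured genes, with a median of -0.12. At an unadjusted p under 0.05, 2 were lower and none higher, beside 4.45% and 5.75% of all genes. They were Mars2 at -0.30 (SE 0.12, adjusted p = 0.455 by limma) and Yars2 at -0.44 (SE 0.18, adjusted p = 0.482 by limma). In both, each treated mouse lay below each control, as in 7.19% of all genes. The values were 8.86, 8.59 and 8.79 against 8.48, 8.47 and 8.40 for Mars2, and 9.25, 8.79 and 8.74 against 8.70, 8.52 and 8.25 for Yars2.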
